A study of Mus musculus with 8 samples.

Results

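Mature CCR7-positive dendritic cells (DCs) were chosen from single-cell profiles of mouse tumors by their own transcripts. A cell was taken if it held at least 3 unique molecular identifiers (UMIs, each counting 1 captured transcript) of *Ccr7*, at least 1 of *Fscn1* and 0 of *Cd3d*, *Cd3e* and *Cd3g*. The gate held 283 of 9886 kept cells, with 59 of them from saline tumors, 94 from free R848 tumors and 130 from tumors given medium R848-BPDs. Because these transcripts chose the cells, their levels, and the levels of other genes in gated against other cells, are described without a test. Tests compare treatments within the gate, on genes other than those of the gate. Mature DCs form when a dendritic cell has taken up material or sensed danger: the cell stops sampling, raises costimulatory molecules and cytokines, and uses CCR7 to follow CCL19 and CCL21 into lymphatic vessels and the lymph node, where it meets naive T cells. Tumors hold the same state, which also carries genes that restrain T cells, such as *Cd274* (PD-L1), *Cd200* and *Il4i1*. Fascin-1, the product of *Fscn1*, bundles actin in the long processes of such cells.

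The cells came from MC38 tumors, a C57BL/6 colon carcinoma line grown under the skin of female C57BL/6J mice that were 8 weeks old. Each tumor was dissociated 24 hours after 1 dose of saline (3 tumors), of free R848, a small-molecule agonist of the endosomal receptors TLR7 and TLR8 (3 tumors), or of medium R848-BPDs, bottlebrush polymers that carry R848 on a linker of intermediate release rate (2 tumors). CD45+ and CD45- cells were separated on magnetic beads and loaded 9 to 1 onto Seq-Well arrays, so a share of cells is a share of what was loaded, not of the tumor. MC38 is a single transplanted line, and there was no tumor given the polymer without R848, so the polymer and its drug cannot be told apart. Nothing in the labels gives a sequencing batch, so batch and treatment cannot be told apart. The study's methods describe loading the cells of each mouse, and the p-values measure the spread between these tumors.

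The tumors held 5867590 to 12422614 UMIs, with a median of 3247 to 6928 per kept cell. Gated cells had a median of 4565 UMIs, 1802 genes and 4.85% mitochondrial UMIs, and their counts summed to between 56617 and 532047 per tumor. Saline replicate 2 contributed 7 gated cells, the fewest, and its values are the least precise. Barcode sequences found in more than 1 tumor numbered 11 among kept cells and 0 among gated cells. Scrublet marked 6 gated cells as doublets. Of the gated cells, 22 held at least 5 UMIs of *C1qa*, *C1qb* and *C1qc* together, which are macrophage transcripts, 3 held a B cell marker, and 28 cells that passed on *Ccr7* and *Fscn1* were left out only by a CD3 UMI, 16 of them from medium R848-BPD replicate 1.

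The label was checked against the 2 markers that the gate did not use. *Ccl22*, which encodes a ligand of CCR4 on regulatory and memory T cells, was found in 71.0% of gated cells at a mean of 1936 UMIs per 1000000 UMIs (CPM), against 13.8 CPM in all other kept cells. *Il4i1*, a secreted amino acid oxidase that depletes phenylalanine and tryptophan around T cells, was found in 91.9% of them at 1388 against 19.8 CPM. Both were higher in the gated cells of all 8 tumors. The 12 cells just inside the gate, with exactly 3 *Ccr7* UMIs, held *Ccl22* at 1122 and *Il4i1* at 1066 CPM. The 11 cells just outside, with exactly 2, held them at 324 and 235 CPM.

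The genes that stood farthest above the other kept cells in every tumor fell into a few kinds. Ranked by the lowest ratio over the 8 tumors, *Bcl2l14*, a BCL2-family gene, came first at a mean of 346 CPM in gated cells and 2.04 CPM elsewhere. *Tbc1d4*, a Rab GTPase-activating protein, was at 2248 CPM, in 97.2% of the cells, against 35.3 CPM. Calcium-channel subunits were among the leading 20, with *Cacnb3* at 806 against 9.00 CPM and *Cacna1s* at 138 against 2.15 CPM. So were transporters of fatty acids, bicarbonate and organic ions (*Slc27a3*, *Slc4a8*, *Slc22a23*) and receptors or ligands at the cell surface (*Ramp3*, *Sema7a*, *Cxcr5*, *Cd200*). *Il12b*, the p40 subunit of IL-12 and IL-23, was at 1268 against 12.5 CPM although only 42.8% of gated cells held it. The 20 also held, at various ranks, *Strip2*, *Mreg*, *Mmp25*, *Socs2*, *Ccl22*, *Il4i1* and *Gm13546*, and *Ccr7*, whose level the gate itself set. *Gm13546* is annotated on GRCm38 at chr2:58164001-58177063, within and antisense to *Cytip*. How strand was used in counting is not stated in the sources used here, so its reads cannot be told apart from those of *Cytip*.

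**Figure D1:**
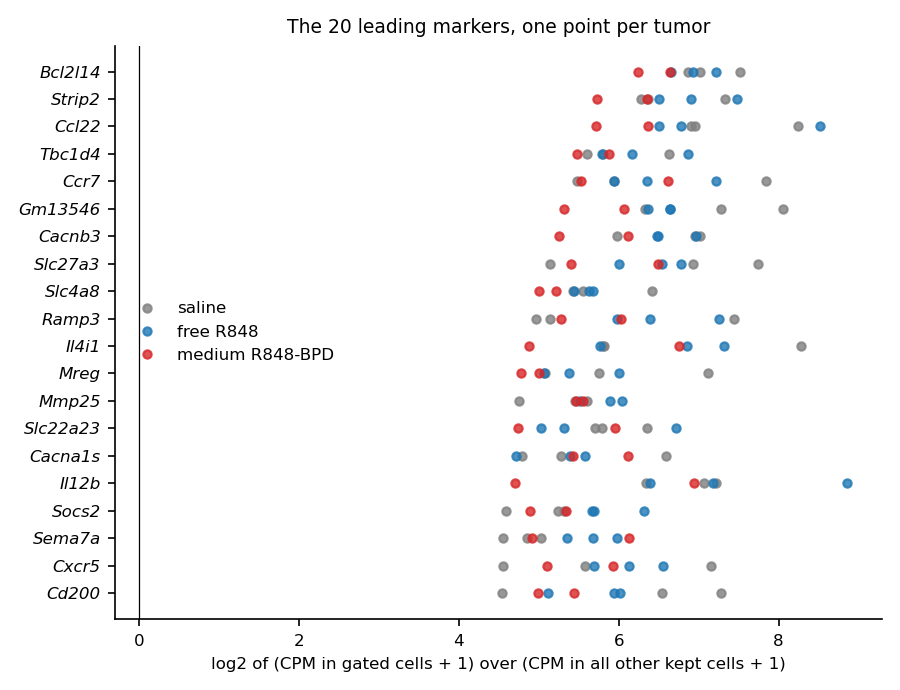
The 20 leading markers of the gated cells, *Ccr7* of the gate included. Each point is 1 tumor, and the horizontal axis gives the log2 ratio of CPM plus 1 in gated cells over CPM plus 1 in all other kept cells of that tumor; all points lie above 4.5, the lowest being *Cd200* at 4.55.

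Set against less mature DCs of the same tumors, few of the gated cells held the genes of origin. Cells gated on *Xcr1* and *Clec9a* (at least 2 UMIs, no *Ccr7*), which mark the cross-presenting type cDC1, numbered 58, and cells gated on *Cd209a*, a marker of the type cDC2, numbered 23. Only 10 gated mature cells held any *Xcr1* or *Clec9a* UMI, 2 held *Cd209a* and 0 held both. In the 4 tumors with at least 5 cells of each, *Wdfy4*, which cross-presentation requires, was at 842 CPM in cDC1-gated and 34.9 CPM in mature cells. Conversely *Adcy6*, *Mreg*, *Tnfsf4* (OX40 ligand) and *Socs2* were at 516, 312, 230 and 304 CPM in mature cells and had 0 UMIs in the cDC1-gated cells. The counts of the less mature cells were small, from 23 cDC1-gated cells in saline replicate 1 down to 1 in each medium R848-BPD tumor. *Cd209a*-gated cells numbered 12, 2 and 5 after saline, 1, 1 and 2 after free R848 and 0 and 0 after medium R848-BPDs. The transcripts that stood farthest below the other kept cells were macrophage genes, such as *Ccl7* (21.0 against 385 CPM), *Apoe* (510 against 4411 CPM) and *Mrc1* (19.0 against 177 CPM).

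Mature DCs made up more of the kept cells in treated tumors, but by an exact test that these numbers of tumors cannot bring under 0.05. They were 2.40, 0.485 and 1.5% of kept cells after saline, 2.65, 2.51 and 3.81% after free R848, and 5.88 and 4.09% after medium R848-BPDs. No treated tumor was as low as the highest saline tumor, and both medium R848-BPD tumors were above all others. The means were 1.46% ± 0.960 (SD, n = 3), 2.99% ± 0.714 (n = 3) and 4.98% ± 1.26 (n = 2). The two-sided exact permutation test gave p = 0.1 for free R848 and for medium R848-BPDs against saline, the smallest p that either design allows, and p = 0.2 between the treatments, with adjusted values of 0.15, 0.15 and 0.2 over the 3 comparisons. The order was kept when each cell was thinned to 1500 UMIs and gated at 1 *Ccr7* UMI (means of 1.11, 2.91 and 4.84%). Gating on *Ccl22* and *Il4i1* instead gave means of 1.95, 2.91 and 3.40% with overlapping groups (exact permutation p = 0.4, 0.4 and 0.7). That gate selects on *Ccl22*, which within the mature DCs was at 675 and 509 CPM after medium R848-BPDs and 913 to 4111 CPM after saline, a difference not called. The gate used here selects on *Fscn1*, whose median per gated cell was 10, 10 and 7 UMIs after saline. It was 26, 17 and 8 UMIs after free R848 and 22 and 14 UMIs after medium R848-BPDs. The part of either gene in the shares was not tested.

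**Figure D2:**
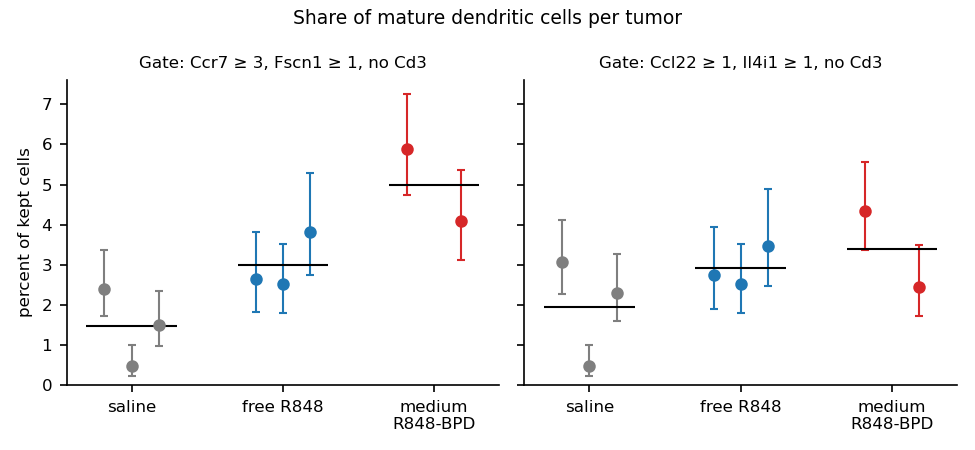
Share of mature DCs among kept cells, in percent, under the gate used here (left) and under a gate on *Ccl22* and *Il4i1* (right). Points are tumors with 95% Wilson binomial intervals, which cover counting error only, and lines are group means. The groups separate on the left (0.485 to 2.40%, 2.51 to 3.81%, 4.09 to 5.88%) and overlap on the right.

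Expression within the gated cells was compared after their UMIs had been summed per tumor, with edgeR's quasi-likelihood test and Benjamini-Hochberg adjustment over the 4195 genes that passed the filter on low counts. Values per tumor below are CPM of the gated cells, scaled by TMM, in the order of the replicates. A gene is called at an adjusted p under 0.05. The 2 treatments share the saline tumors, so their values against saline are not independent.

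Free R848 against saline gave 0 calls in either direction (0% of genes higher and 0% lower). At an unadjusted p under 0.05, 232 genes were higher (5.53%) and 218 lower (5.2%). DESeq2 called 12, but gave no adjusted p for 3985 of the 4195 genes, so its count does not compare with that of edgeR. The 5 genes with the smallest p included 3 that were higher in each treated tumor, none of them called. *H2-Q6*, a class Ib MHC heavy chain, was at 625, 565 and 764 CPM after saline and at 1888, 1319 and 1341 CPM after free R848. *Trim30d*, of a TRIM family with interferon-inducible members, was at 85.0, 66.4 and 38.2 CPM and at 260, 259 and 204 CPM. *Gga3*, a Golgi sorting adaptor, was at 10, 0 and 25.5 CPM and at 77, 118 and 98.9 CPM. In none of the 3 genes did the groups overlap, and the log2 fold changes were 1.22 (SE 0.23), 1.81 (SE 0.33) and 2.99 (SE 0.58), each with an adjusted p of 0.121 in edgeR. The other 2, *Dst* (a cytoskeletal linker, log2 fold change of −2.93) and *Col6a3* (a collagen VI chain, −3.58), were lower. *Col6a3* passed the threshold without saline replicate 1 (adjusted p = 0.0195) or without medium R848-BPD replicate 2 (0.0473), and its carriers are described with the tumor-cell genes.

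Medium R848-BPDs against saline gave 26 calls, 19 higher (0.453% of genes) and 7 lower (0.167%). They were sorted by the class of cell that held each gene at the highest pooled level: the gated DCs, macrophages (at least 5 C1q UMIs), or cells with at least 2 UMIs of neutrophil (*Csf3r*, *Retnlg*, *Cxcr2*), natural killer (NK; *Ncr1*, *Klrb1c*) or MC38 (*Rhox5*, *Fam159b*) markers. Of those that were highest in the DCs, *Dll4*, *Spib*, *Ccl5*, *Nupr1*, *Gga3* and *Trim30d* rose, and *Cx3cl1*, *Lad1* and *Nudt9* fell. Of the 19 genes that rose, 6 were highest in the gated cells, 6 in C1q-positive macrophages, 5 in neutrophil-gated cells and 2 in NK-gated cells of the medium R848-BPD tumors. Of the 7 that fell, 3 were highest in the gated cells, 3 in MC38-gated cells and 1 in NK-gated cells of the saline tumors. The classes other than the gated DCs were chosen without a *Ccr7* UMI, and neutrophil-gated and NK-gated cells also without a C1q UMI.

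*Dll4*, which encodes a Notch ligand that DCs display to T cells, had the smallest adjusted p of the genes highest in the DCs. It had 0 UMIs in the 59 saline cells, was at 35.5, 45.1 and 37.1 CPM after free R848 and at 182 and 112 CPM after medium R848-BPDs. The 3 groups did not overlap. Over pooled cells it was at least 18.1-fold higher after medium R848-BPDs than the limit that 3 UMIs would set in saline, and at least 4.45-fold higher after free R848. edgeR's quasi-likelihood test gave an adjusted p of 0.00388 for medium R848-BPDs against saline, and the call held in all 19 alternatives in which it was tested, with adjusted p-values up to 0.0355. Against saline, free R848 did not pass (adjusted p = 0.185), nor did medium R848-BPDs against free R848 (log2 fold change of 1.91, SE 0.40, adjusted p = 0.103). Its 126 UMIs after medium R848-BPDs lay in 35 of 130 cells (26.9%, median of 4893.5 UMIs), against 0.877% of cells with at least 2 CD3 or NK-marker UMIs, called lymphocytes here (median of 6121 UMIs), and it was at 0.144 CPM in the macrophages of the same tumors.

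*Dtx2* and *Spib* also stood higher in every treated tumor than in any saline tumor. They and *Ccl5*, *Il1rn*, *Nupr1* and *Fth1* were named after their values had been seen. *Dtx2*, an E3 ubiquitin ligase of the Deltex family that acts in Notch signaling, was at 25, 33.2 and 12.7 CPM after saline, 77, 78.9 and 61.8 CPM after free R848 and 158 and 211 CPM after medium R848-BPDs. The 3 groups did not overlap (log2 fold change of 2.92 against saline, SE 0.43, adjusted p = 0.00614 in edgeR), and the call was lost only in cells gated on *Ccl22* and *Il4i1* (0.0667). *Dtx2* was also present in macrophages, at 201 CPM after medium R848-BPDs and 27.6 CPM after saline. *Spib*, an ETS transcription factor, was at 30, 16.6 and 38.2 CPM after saline, 231, 73.3 and 68.0 CPM after free R848 and 277 and 174 CPM after medium R848-BPDs, and at 1.87 CPM in macrophages of the latter. Its log2 fold change was 2.94 (SE 0.58, adjusted p = 0.0329 in edgeR). The *Spib* call was lost without saline replicate 1, 2 or 3 (adjusted p of 0.12, 0.0868 and 0.101) and without medium R848-BPD replicate 1 (0.143).

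*Ccl5*, a chemokine that draws T cells and NK cells, was the most abundant gene that rose. It was at 3229, 1909 and 2647 CPM after saline, 8459, 6016 and 4702 CPM after free R848 and 7287 and 10689 CPM after medium R848-BPDs. Every treated tumor was above every saline tumor, and the treated groups overlapped. The log2 fold change for medium R848-BPDs against saline was 1.78 (SE 0.28, adjusted p = 0.00922 in edgeR), and without medium R848-BPD replicate 2 it was 1.53 (adjusted p = 0.087). For free R848 it was 1.29 (SE 0.26, adjusted p = 0.121). The UMIs lay in 129 of 130 cells after medium R848-BPDs, and the pooled level was 8396 CPM in them against 908 CPM in macrophages and 319 CPM in lymphocytes. *Il1rn*, the interleukin-1 receptor antagonist, also rose, from 295, 282 and 407 CPM to 829 and 1184 CPM, with 527, 553 and 513 CPM after free R848. Unlike *Ccl5*, *Il1rn* was not highest in the gated cells. After medium R848-BPDs it was at a pooled 946 CPM in them, 1190 CPM in macrophages and 1120 CPM in neutrophil-gated cells. Its log2 fold change was 1.62 (SE 0.26, adjusted p = 0.00969), and the call was lost without saline replicate 1 (0.0525) or medium R848-BPD replicate 2 (0.118). *Nupr1*, a stress-induced chromatin protein, rose to 240 and 368 CPM from 55.0, 83.0 and 25.5 CPM (log2 fold change of 2.49, SE 0.43, adjusted p = 0.015), and was also called against free R848. Its call against saline was lost without saline replicate 1 or 3 or medium R848-BPD replicate 2 (adjusted p up to 0.103). *Gga3* and *Trim30d*, described above, were called for medium R848-BPDs (adjusted p = 0.0368 and 0.0454), and lost in 6 and 7 of the 8 fits without 1 tumor (up to 0.146 and 0.335).

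**Figure D3:**
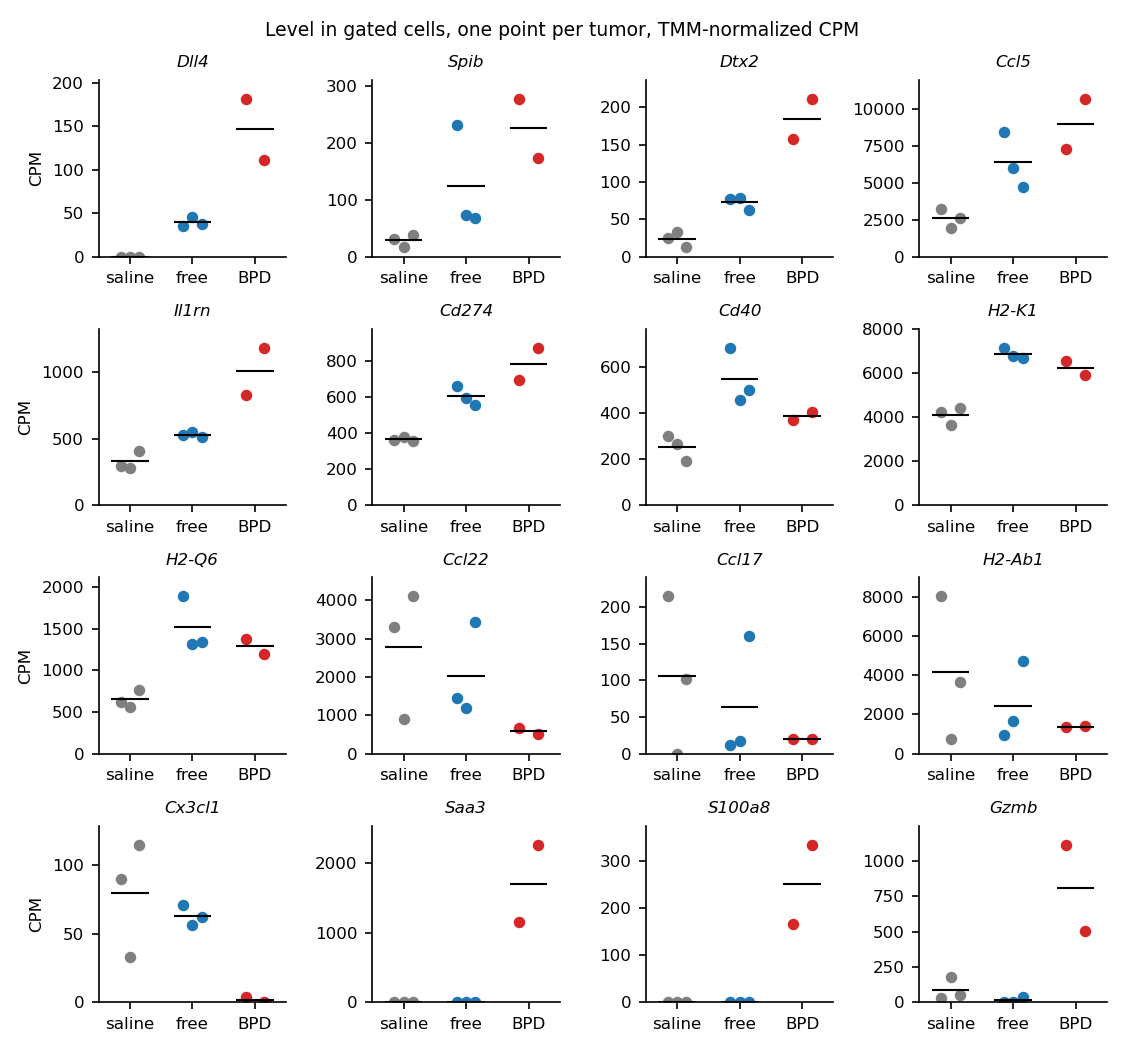
Levels of 16 genes in the gated cells, in TMM-scaled CPM on linear axes that start at 0. Points are tumors (gray, saline; blue, free R848; red, medium R848-BPDs) and lines are group means; *Dll4*, *Dtx2* and *Il1rn* separate all 3 groups, while *Ccl22* and *H2-Ab1* spread widely among saline tumors.

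Among the genes that fell, *Cx3cl1* had the largest change. It encodes fractalkine, a membrane-bound chemokine for cells with CX3CR1. It was at 90.0, 33.2 and 115 CPM after saline and 71.0, 56.4 and 61.8 CPM after free R848, and at 3.67 and 0 CPM after medium R848-BPDs, where the 130 cells held 2 UMIs. Both medium R848-BPD tumors were below all 6 others. Over pooled cells it was 33.7-fold lower than after saline (95% counting interval of 8.51 to 291) and 24.8-fold lower than after free R848 (6.32 to 213). edgeR's adjusted p was 0.0107 against saline and 0.022 against free R848. The call against saline was lost without saline replicate 1 (0.0657) or 3 (0.055), and the call against free R848 in 6 of the 8 fits without 1 tumor (up to 0.124).

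*Cx3cl1* lies between *Ccl22* and *Ccl17* on GRCm38 (GENCODE vM21), at chr8:94772009-94782427, and the 3 chemokine genes span 66.4 kb. This was looked up after the values had been seen. *Ccl22* was at 3304, 913 and 4111 CPM after saline, 1450, 1207 and 3429 CPM after free R848 and 675 and 509 CPM after medium R848-BPDs. The 2 medium R848-BPD tumors were below all others, yet *Ccl22* was not called (log2 fold change of −2.23, SE 0.54, adjusted p = 0.0786). Without saline replicate 2, the tumor with 7 gated cells, it passed (−2.64, adjusted p = 0.013). *Ccl17*, the other CCR4 ligand, was at 215, 0 and 102 CPM after saline, 11.8, 16.9 and 161 CPM after free R848 and 20.2 and 20.7 CPM after medium R848-BPDs. All 3 groups overlapped (−2.63 for medium R848-BPDs against saline, SE 0.94, adjusted p = 0.257 in edgeR). The 3 tested genes within 100 kb on either side, *Arl2bp*, *Ciapin1* and *Polr2c*, had log2 fold changes from −0.42 to 0.08 and unadjusted p-values of 0.455 or more.

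The 2 other called genes that fell and were highest in DCs were *Lad1*, a basement-membrane anchor protein, and *Nudt9*, an ADP-ribose hydrolase. *Lad1* was at 115, 49.8 and 165 CPM after saline and 14.7 and 12.4 CPM after medium R848-BPDs, and at 0 CPM in macrophages of the saline tumors. *Nudt9* was at 290, 365 and 534 CPM and at 132 and 86.9 CPM. In neither gene did the groups overlap (adjusted p of 0.0454 and 0.0329 in edgeR), and each call was lost in 5 of the 8 fits without 1 tumor, with adjusted p-values up to 0.205 for *Lad1* and 0.4 for *Nudt9*.

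The largest log2 fold changes among the called genes that rose against saline were those of the acute-phase and granulocyte genes *Saa3*, *S100a9*, *S100a8* and *Lcn2*. *Dll4* came next, above *Mmp8*. Most UMIs of *Saa3*, *S100a8* and *S100a9* sat in few of the gated cells. *Saa3*, serum amyloid A3, had 0 UMIs in all saline and free R848 tumors and was at 1149 and 2264 CPM after medium R848-BPDs. It was at least 168-fold higher than the saline limit and at least 253-fold higher than the free R848 limit (adjusted p = 0.000236 and 8.63e-05 in edgeR, and 0.477 and 0.883 in DESeq2). Of its 1173 UMIs, 36.2% were in 1 cell and 62.1% in 3. UMIs of *Saa3* were found in 37.7% of gated cells and in 32.9% of the lymphocytes of the same tumors, which should not express it. The lymphocytes were chosen without a C1q or *Ccr7* UMI. Of the 283 gated cells 77 held a C1q UMI, so the shares are not like for like. By tumor the shares were 37.5 against 29.7% and 38.0 against 45.7%, and, with each cell thinned to 1500 UMIs, 6.25 against 12.2% and 28.0 against 23.9%. In both tumors the direction turned with thinning, so no order is read from these shares. The pooled level was 1503 CPM in gated cells, 330 CPM in lymphocytes and 11214 CPM in macrophages.

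*S100a8* and *S100a9*, which form calprotectin, had 0 and 1 UMIs in the saline and free R848 cells together. After medium R848-BPDs *S100a8* was at 167 and 335 CPM and *S100a9* at 217 and 410 CPM. *S100a8* was at least 24.7-fold and *S100a9* at least 31.2-fold higher than the saline limit (adjusted p = 0.00614 and 0.00206 in edgeR). DESeq2 did not call *S100a8* (0.812). Their UMIs lay in 12 and 9 of 130 cells, with 74.4 and 73.7% of them in 3 cells, and the neutrophil-gated cells of these tumors held them at 3764 and 4523 CPM. Of the 12 gated cells with *S100a8*, 7 also held *S100a9*, *Csf3r*, *Retnlg* or *Cxcr2*, against 7 of the other 118. *Lcn2*, a siderophore-binding protein, and *Mmp8*, a neutrophil collagenase, rose from 0 UMIs to at least 16.7-fold and 10.9-fold above the saline limit and lay in 21 and 12 cells. The *Lcn2* call was lost without saline replicate 1 (adjusted p = 0.0657) or medium R848-BPD replicate 2 (0.106), and that of *Mmp8* without any 1 of the saline or medium R848-BPD tumors (up to 0.4).

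Cytotoxic genes were likewise carried by few cells. *Prf1* (perforin) and *Gzmb* (granzyme B) rose to 255 and 108 CPM and to 1114 and 505 CPM, from at most 15 and 183 CPM after saline. Of the 729 *Gzmb* UMIs, 83.7% were in 3 cells, and 8 of the 14 cells with *Gzmb* also held another NK transcript, against 3 of the other 116. Lymphocytes of these tumors held *Gzmb* at 11335 CPM. The calls against saline were lost without saline replicate 1 or 3 or medium R848-BPD replicate 1 in both genes (adjusted p up to 0.195). On the falling side, *Col6a3* had 57 UMIs in 8 of 59 saline cells, all 8 of which held another collagen VI or MC38 transcript, and it was at 699 CPM in MC38-gated cells. The *Col6a3* call was lost without saline replicate 2 or 3 or medium R848-BPD replicate 1 (adjusted p up to 0.147). *Scd2*, a stearoyl-CoA desaturase, and *H1f0*, a linker histone, also fell and were highest in MC38-gated cells, and each call was lost in 4 of the 8 fits without 1 tumor (up to 0.158 and 0.216). *Nabp1*, a single-strand DNA binding protein, fell and was lost in 4 fits (up to 0.375).

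Markers of other cells that were not themselves called were also found in the gate. The 3 such neutrophil markers, *Csf3r*, *Retnlg* and *Cxcr2*, summed to 0 to 5.89 CPM in the 6 saline and free R848 tumors and to 71.4 and 44.3 CPM in the medium R848-BPD tumors, and the groups did not overlap. The 4 such NK markers, *Ncr1*, *Klrb1c*, *Gzma* and *Klra8*, summed to 0 to 9.90 CPM after saline, 5.79, 240 and 23.6 CPM after free R848 and 363 and 173 CPM after medium R848-BPDs, so the treated groups overlapped. The 4 MC38 markers ran the other way, at 347, 1554 and 630 CPM after saline and 207 and 121 CPM after medium R848-BPDs. The 7 macrophage markers found summed to 156 to 2349 CPM in the 6 saline and free R848 tumors and to 1648 and 1558 CPM in the medium R848-BPD tumors. Their part in the calls was not tested. The fit was repeated without marked doublets, cells with at least 5 C1q UMIs and cells with a UMI of a B cell, NK, neutrophil or MC38 marker. There, *Saa3*, *Dll4*, *Dtx2*, *Spib*, *Ccl5*, *Il1rn*, *Nupr1*, *Acp5*, *Trim30d*, *Cx3cl1* and *Nabp1* were called again, 11 of the 17 called genes that still passed the filter. *S100a8*, *S100a9*, *Lcn2*, *Mmp8*, *Prf1*, *Gzmb*, *Col6a3* and *Scd2* were among those that no longer had enough counts to be tested. This choice, made after seeing the data, left saline replicate 2 with 4 cells and dropped it, and 39 genes were called of 2842, 17 higher (0.598%) and 22 lower (0.774%).

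**Figure D4:**
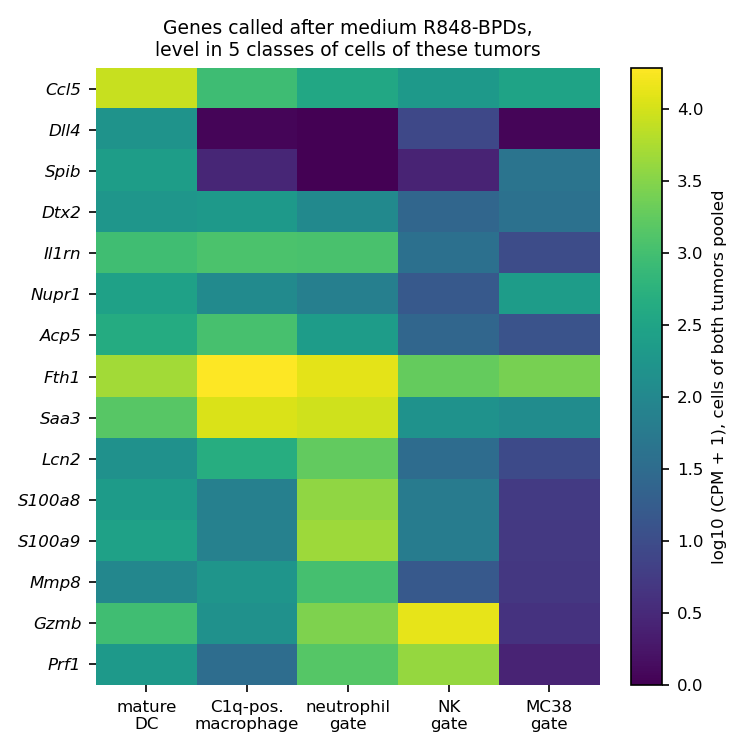
Levels of 15 genes that rose after medium R848-BPDs, as log10 of CPM plus 1 pooled over both tumors, in mature DCs and in cells gated as macrophages, neutrophils, NK cells and MC38 cells. *Ccl5*, *Dll4* and *Spib* are highest in the DCs, *Saa3* and *Fth1* in macrophages, *S100a8*, *S100a9* and *Mmp8* in neutrophils, and *Gzmb* and *Prf1* in NK cells.

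Medium R848-BPDs against free R848 gave 14 calls, 13 higher (0.31%) and 1 lower (0.0238%). Only 1 of the 13 genes that rose, *Nupr1*, was highest in the gated cells, and 6 were highest in macrophages, 4 in neutrophil-gated and 2 in NK-gated cells. *Saa3*, *S100a8*, *S100a9*, *Lcn2*, *Mmp8*, *Gzmb* and *Prf1* recur here with the carriers already described. *Acp5*, tartrate-resistant acid phosphatase, was at 29.6, 50.7 and 37.1 CPM after free R848 and 424 and 422 CPM after medium R848-BPDs (log2 fold change of 3.41, SE 0.38, adjusted p = 0.000507 in edgeR), with 34.2% of its UMIs in 1 cell and 1113 CPM in macrophages. It was not called when the gate was loosened to 2 *Ccr7* UMIs or set on *Ccl22* and *Il4i1*, under which its change against saline was −1.73. *Fth1*, the ferritin heavy chain, rose from 1959, 2238 and 1446 to 4441 and 5634 CPM (1.42, SE 0.25, adjusted p = 0.0215, lost in 5 of 8 fits without 1 tumor, up to 0.445). *Pltp*, a phospholipid transfer protein, and *Sod2*, the mitochondrial superoxide dismutase, also rose, and were named after their values had been seen. They were lost in 3 and 6 of the 8 fits. Without 1 tumor, 5 of the 14 calls held in all 8 fits, namely *Acp5*, *Gzmb*, *S100a8*, *S100a9* and *Saa3*. Against saline 7 of 26 did, among them *Acp5*, *Dll4*, *Dtx2*, *S100a8*, *S100a9* and *Saa3*.

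Class I antigen-presentation genes had higher medians after both treatments and class II genes lower ones, with 0 calls among all gated cells. Class I molecules carry peptides from inside the cell to CD8+ T cells, and class II molecules carry endocytosed peptides to CD4+ T cells. Of 23 class I and cross-presentation genes tested, 20 were above 0 for free R848 against saline, with 12 higher and 1 lower at an unadjusted p under 0.05 (background 5.53 and 5.2%) and a median log2 fold change of 0.50 against 0.00 over all genes. For medium R848-BPDs against saline 8 were higher and 0 lower (background 7.37 and 5.13%), with a median of 0.42 against −0.03. Without the cells holding markers of other classes, *H2-Q7*, a class Ib heavy chain named after its value had been seen, was called higher there (log2 fold change of 1.23, SE 0.29, adjusted p = 0.044 in edgeR, beside 0.598% of all genes called higher). *H2-K1*, a classical heavy chain, was at 4218, 3653 and 4429 CPM after saline, 7175, 6778 and 6710 CPM after free R848 and 6553 and 5932 CPM after medium R848-BPDs. *H2-D1*, the other, was at 4084, 3105 and 3258, then 5795, 5266 and 5363, then 5202 and 5311 CPM. *B2m*, the light chain they share, was at 4263, 3669 and 3716, then 6334, 5599 and 5759, then 5461 and 5878 CPM. In all 3 genes every treated tumor was above every saline tumor, and the unadjusted p-values for free R848 were 0.000526, 0.0025 and 0.00307 (adjusted p of 0.2, 0.283 and 0.287 in edgeR). Class I heavy chains are near-identical copies, and reads may have been split among them.

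The promoters of these 3 genes are shown because class I genes stood higher together. Each is the 250 bases before the RefSeq transcription start (GRCm38.p6), 5′ to 3′ on the gene's strand, at chr2:122147437-122147686 for *B2m* (plus strand), chr17:34000348-34000597 for *H2-K1* (minus) and chr17:35262844-35263093 for *H2-D1* (plus). Capitals mark matches on either strand to an NF-kB motif and, in *B2m* only, to the core of the interferon-stimulated response element (ISRE), GAAANNGAAA.
B2m: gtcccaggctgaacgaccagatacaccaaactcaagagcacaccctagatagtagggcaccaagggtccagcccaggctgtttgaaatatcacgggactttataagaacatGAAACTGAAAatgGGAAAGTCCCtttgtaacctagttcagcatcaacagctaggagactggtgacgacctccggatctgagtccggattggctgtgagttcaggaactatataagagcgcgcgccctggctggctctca
H2-K1: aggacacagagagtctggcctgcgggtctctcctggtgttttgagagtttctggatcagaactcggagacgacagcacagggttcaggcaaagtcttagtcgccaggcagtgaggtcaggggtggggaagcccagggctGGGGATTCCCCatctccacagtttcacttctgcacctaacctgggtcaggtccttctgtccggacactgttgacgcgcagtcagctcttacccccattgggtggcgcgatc
H2-D1: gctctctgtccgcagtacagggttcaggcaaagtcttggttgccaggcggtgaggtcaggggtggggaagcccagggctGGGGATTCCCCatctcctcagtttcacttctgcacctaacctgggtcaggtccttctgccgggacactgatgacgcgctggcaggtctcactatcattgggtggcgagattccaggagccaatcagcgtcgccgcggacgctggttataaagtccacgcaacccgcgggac
In *H2-K1* and *H2-D1* the capitals are overlapping matches to the NF-kB motif. That motif was found in 8 of 22 promoters of the class I list (36.4%) and in 3.90% of all 32851 promoters of the same length, and the ISRE core in 3 of 22 (13.6%) and 2.98%. The 8 promoters with the NF-kB motif belonged to 7 genes, *B2m* and the heavy chains *H2-K1*, *H2-D1*, *H2-Q4*, *H2-Q6*, *H2-Q7* and *H2-T22*. *H2-K1* entered with 2 overlapping promoters, and none of the other class I genes held the motif. The heavy chains are near-identical copies, so these matches are not independent. Of 23 promoters of the type I interferon list, 2 held the NF-kB motif and 11 (47.8%) the ISRE core. Of 23 class I genes 20 had a promoter entry, and of 30 interferon genes 21 did. A match describes letters in this window and says nothing of binding.

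Class II values spread widely among saline tumors. Of 7 class II genes tested 6 were below 0 against saline, 5 of them at an unadjusted p under 0.05 (background 5.13% lower), with a median log2 fold change of −1.44. For free R848 the median was −0.41 with 0 at that p. *H2-Ab1*, a class II beta chain, was at 8017, 747 and 3652 CPM after saline, 953, 1680 and 4702 CPM after free R848 and 1365 and 1395 CPM after medium R848-BPDs. Saline replicate 2 was below both medium R848-BPD tumors, and no class II gene was called (*H2-Ab1*, −1.61, SE 0.72, adjusted p = 0.374 in edgeR). Without the cells that held markers of other classes, a setting that also drops saline replicate 2, *H2-Ab1* and *H2-DMb1* of 8 tested were called lower, beside 0.774% of all genes.

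**Figure D5:**
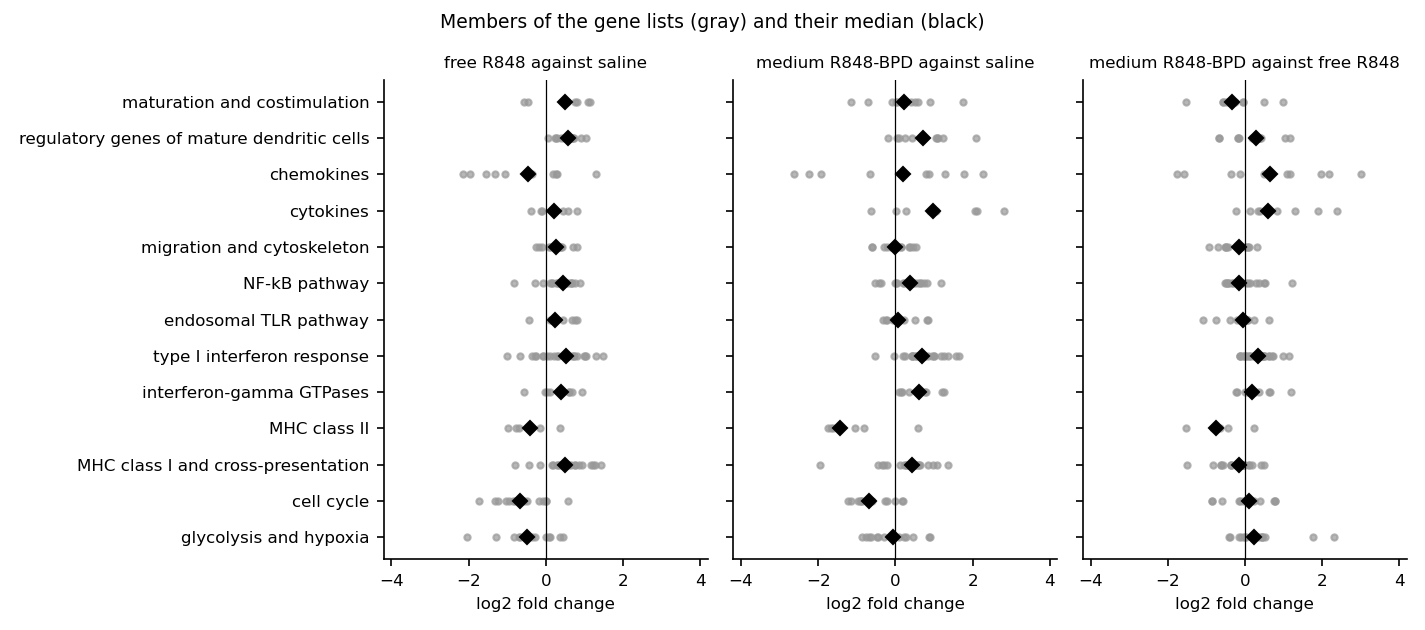
Log2 fold change of each tested member (gray) and the median (black diamond) of the gene lists, in the gated cells, for the 3 comparisons. Class I genes lie right of 0 in both comparisons with saline (medians 0.50 and 0.42), and class II genes left of it (−0.41 and −1.44).

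Most interferon-response genes had higher values after both treatments, and 0 of them were called. Of 26 type I interferon-response genes, 19 were above 0 for free R848 (6 higher at an unadjusted p under 0.05 beside 5.53% of all genes, 0 lower, median 0.51) and 24 for medium R848-BPDs (9 beside 7.37%, 0 lower, median 0.69). *Isg15*, a ubiquitin-like modifier, was at 215, 232 and 280 CPM after saline, 331, 541 and 550 CPM after free R848 and 462 and 691 CPM after medium R848-BPDs (adjusted p = 0.0786 for the latter in edgeR). All 10 interferon-gamma-induced GTPases tested were above 0 for medium R848-BPDs (3 at that p, median 0.60). *Gbp5*, a guanylate-binding protein, was at 235, 232 and 229, then 533, 383 and 433, then 505 and 571 CPM, with an adjusted p of 0.0504. Every treated tumor was above every saline tumor in both genes. Without the cells holding markers of other classes, the type I median was 0.04 for free R848 (14 of 26 above 0) and 0.30 for medium R848-BPDs (19 of 26).

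Regulatory genes of mature DCs, a list of inhibitory ligands, enzymes, SOCS proteins and receptors such as *Tnfrsf9* (4-1BB), had 0 calls. Of 12 tested, 12 were above 0 for free R848 (2 higher at an unadjusted p under 0.05 beside 5.53% of all genes, median 0.58) and 11 for medium R848-BPDs (5 beside 7.37%, median 0.72). Without the cells holding markers of other classes, 8 were above 0 in each comparison with saline, with medians of 0.38 and 0.36. *Cd274* (PD-L1) was at 365, 382 and 356 CPM after saline, 663, 598 and 556 CPM after free R848 and 699 and 878 CPM after medium R848-BPDs. The 3 groups did not overlap, and the adjusted p for medium R848-BPDs against saline was 0.0518 (log2 fold change of 1.10, SE 0.24). *Cd200*, whose receptor inhibits myeloid cells, was at 340, 482 and 547 CPM after saline, 900, 699 and 538 CPM after free R848 and 903 and 944 CPM after medium R848-BPDs (1.05, SE 0.28, adjusted p = 0.113). *Il4i1* was at mean levels of 1202, 1426 and 1626 CPM and was not called. Of 10 maturation genes, *Cd40*, the receptor through which T cells license DCs, was highest after free R848, at 687, 457 and 500 CPM, against 300, 266 and 191 CPM after saline and 371 and 406 CPM after medium R848-BPDs (1.09, SE 0.27, adjusted p = 0.241 for free R848 in edgeR). The maturation list had medians of 0.51 and 0.23 against saline, with 0 calls, and of 0.28 and 0.06 without the cells holding markers of other classes.

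No cytokine gene was called among all gated cells. Of 8 cytokine genes tested, 4 were higher at an unadjusted p under 0.05 for medium R848-BPDs against saline (beside 7.37% of all genes, median 0.98) and 0 for free R848. Without the cells holding markers of other classes, the median for medium R848-BPDs was 0.52, and *Il1b*, which encodes interleukin-1 beta and was named after its value had been seen, was called lower (log2 fold change of −1.44, SE 0.35, adjusted p = 0.0494 in edgeR, beside 0.774% of all genes called lower). *Il6* was at 25, 16.6 and 25.5 CPM after saline, 35.5, 39.5 and 49.4 CPM after free R848 and 80.7 and 132 CPM after medium R848-BPDs (adjusted p = 0.0699). *Il27*, the p28 subunit of IL-27, was at 15, 0 and 12.7, then 11.8, 16.9 and 18.5, then 78.9 and 91.1 CPM (adjusted p = 0.0786 against saline in edgeR). Both medium R848-BPD tumors were above all others in both genes. *Il12b* was at 1160, 780 and 2685 CPM after saline, 1219, 524 and 1817 CPM after free R848 and 973 and 1031 CPM after medium R848-BPDs, with overlapping groups. Among the 11 tested genes of the chemokine list, which does not hold *Cx3cl1*, *Ccl5* alone was called. Without the cells holding markers of other classes *Ccl5* was called higher and *Ccl17* and *Ccl22* lower, beside 0.598 and 0.774% of all genes. That setting drops saline replicate 2, without which *Ccl22* passed by itself, as given above.

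The remaining lists had 0 calls. Of 20 NF-kB pathway genes, 17 were above 0 for free R848 (median 0.45) and 16 for medium R848-BPDs (0.38), and without the cells that held markers of other classes the medians were 0.07 and 0.01. Endosomal TLR pathway genes had medians of 0.23 and 0.06, and 15 migration and cytoskeleton genes 0.26 and −0.02, which became −0.06 and −0.20, and 0.07 and −0.23, in that setting. *Tlr7*, the murine receptor of R848, had 2, 3 and 15 UMIs in the gated cells of the 3 groups and was not tested, while macrophages held it at 78.4, 93.5 and 95.7 CPM. *Myd88*, its adaptor, was at 38.2 to 88.8 CPM over all tumors. Of 14 cell-cycle genes, 12 were below 0 in each comparison with saline (medians −0.68 and −0.69), but only 4 could be tested without the cells that held markers of other classes, and the median for free R848 was then 0.62. Between the treatments, at an unadjusted p under 0.05, 177 genes were higher (4.22%) and 120 lower (2.86%) after medium R848-BPDs. Of 16 glycolysis and hypoxia genes, 2 were higher there, *Hk2* and *Slc2a1*, the glucose transporter GLUT1. *Slc2a1* was at 29.6, 11.3 and 24.7 CPM after free R848 and 101 and 120 CPM after medium R848-BPDs, but at 105, 16.6 and 127 CPM after saline (log2 fold change of 2.30 between treatments, SE 0.53, adjusted p = 0.109, and 0.038 without saline replicate 2).

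Whether a gene's response differed between mature DCs and macrophages of the same tumors was tested with a class-by-group term over 10349 genes. It passed for 9 genes for free R848 against saline (0.087%), 53 for medium R848-BPDs against saline (0.512%) and 26 between the treatments (0.251%). *Cd86*, a costimulatory ligand of CD28, and *Cd83*, a maturation marker, fell in macrophages after medium R848-BPDs and were not called in DCs. *Cd86* changed by 0.40 in DCs and −1.40 in macrophages on the log2 scale (difference of 1.98, SE 0.35, adjusted p = 0.00122 in edgeR), and *Cd83* by −0.09 and −1.75 (1.82, SE 0.37, adjusted p = 0.00661). *Tnf* changed by 2.06 and −1.25 (3.24, SE 0.59, adjusted p = 0.00218), but was called in neither class alone (adjusted p = 0.0942 in macrophages in edgeR). Its mean in saline DCs was 18.9 CPM (SD 23.6). For *Cd200* the term was negative: a change of 1.05 in DCs and 4.08 in macrophages, where it was at 15.5 CPM, against 961 CPM in DCs, both scaled over the 2 classes together (adjusted p = 0.00239). The term for *Dll4* did not pass (adjusted p = 0.292), and macrophages of the medium R848-BPD tumors held it at 0.144 CPM.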

How the data were processed

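Single cells of 8 tumors were profiled on Seq-Well arrays. For each tumor the authors deposited a table of genes by barcodes holding unnormalized UMI counts, aligned to mm10 (submitters' processing notes, which also name bcl2fastq); the strand setting is not given in the sources used here. Of 10791 barcodes, 9886 passed the limits on genes (above 400, below 10000), UMIs (below 50000) and the mitochondrial share (15% or less). Counts of gated cells were summed per tumor, since cells of 1 tumor are not replicates, and fitted over all 8 tumors with edgeR 4.0.16 in R 4.3.3 (TMM, filterByExpr, quasi-likelihood test, Benjamini-Hochberg threshold 0.05), without *Ccr7*, *Fscn1* and the CD3 genes. The class-by-group fit kept the tumor as a block. On simulated data for medium R848-BPDs against saline (3848 genes), the gated fit called 14 of 99 genes changed by 1 and 63 of 86 changed by 2 on the log2 scale, and 1 of 3663 unchanged genes. The class-by-group fit (4195 genes) called 1 of 108 and 21 of 92. Its simulated macrophages had the mean profile and spread of the gated cells, no change of their own and no tumor effect. Its recovery therefore does not carry over to the class-by-group test on the data. Shares were compared by exact permutation, and Wilson binomial intervals and count floors (3 UMIs over a group) cover counting error only.

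The members and gene lists were chosen with earlier results of these data known. Named genes were the list members with the smallest p or a defining role, up to 8 called genes per direction with the largest change, groups that did not overlap and an average level of 5 or more in log2 CPM (5 with the smallest p where fewer were called), 20 markers by the lowest ratio over tumors among genes in at least 25% of gated cells at a mean of 50 CPM or more, 10 each over cDC1-gated and *Cd209a*-gated cells, and 5 per class-by-group term. A called gene is not reported here. Others were named after their values were seen. Alternatives were other size factors, DESeq2 1.42.0, no filter, a replicate block, 2 groups only, other gates, equal cell numbers, doublet removal (Scrublet in scanpy 1.11.5) and leaving out each tumor.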

Additional observations from a re-analysis of the deposited data

Results flagged for a closer look

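The class-by-group term, which asks whether a gene's change in mature DCs differed from its change in macrophages of the same tumors, picked out the 5 genes with the smallest p in each comparison; each value is the log2 change in DCs minus that in macrophages, and each passed in edgeR with Benjamini-Hochberg adjustment. For free R848 against saline these were *Malt1* (1.94), *Igfbp4* (2.57) and the collagen genes *Col3a1* (−5.47), *Col6a3* (−3.71) and *Col6a2* (−3.04). *Igfbp4*, which encodes an IGF-binding protein, was at 42.96 to 80.8 CPM in saline DCs and 128 to 274 CPM in free R848 DCs, and the groups did not overlap, but within DCs alone it did not pass (adjusted p = 0.287). Fibroblasts make these collagens, and MC38-gated cells of the saline tumors also held *Col6a3*, at 699 CPM. The summed fibroblast markers in the gate were 129, 124 and 437 CPM in the 3 saline tumors and 5.89 to 97.0 CPM in the free R848 tumors, and the summed MC38 markers 347, 1554 and 630 CPM and 88.4 to 417 CPM. Their part in these values was not tested.

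For medium R848-BPDs against saline the genes were *Gzmg* (13.75), *Vdr* (4.44), *Igfbp4* (3.32), *Gpr132* (2.43) and *St8sia4* (2.98). *Vdr*, the vitamin D receptor, had means of 113 CPM in saline and 288 CPM in medium R848-BPD DCs, and of 17.6 and 2.41 CPM in macrophages. *Igfbp4*, *Gpr132* and *St8sia4* had changes of 1.59, 0.04 and 0.88 in DCs and −1.49, −2.18 and −1.83 in macrophages, and neither they nor *Vdr* passed within DCs alone. *Gzmg*, a granzyme, was at least 53.7-fold higher in the gated cells than the saline limit, but nearly all of it lay in 1 tumor (4.30 and 714 CPM). The 4 uncalled NK markers summed to 363 and 173 CPM in the gated cells of medium R848-BPD replicates 1 and 2. Their part in the *Gzmg* value was not tested.

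For medium R848-BPDs against free R848 the genes were *Gzmg* (11.76), *Tmem8* (−3.30), *S100a9* (6.45), *Ctsk* (7.87) and *Ighm* (5.38). *Ctsk*, cathepsin K, was at 17.2 and 772 CPM in the 2 medium R848-BPD tumors, so that 1 tumor sets its value. *Ighm* rested on 23 UMIs against 3 (pooled ratio of 4.95, counting interval of 1.5 to 25.8). *Tmem8* had means of 228 and 85.4 CPM in DCs and 23.8 and 101 CPM in macrophages.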

How the results depend on the processing

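The groups held 59 to 130 gated cells from 2 or 3 tumors, and how far either number limits the calls was not tested. Without the filter on low counts, 66 genes passed for free R848 against saline, 190 for medium R848-BPDs against saline and 86 between treatments, of 14050 tested, against 0, 26 and 14. DESeq2 called 12 genes for free R848 but gave no adjusted p for 3985, and gating on *Ccl22* and *Il4i1* called 1 there and 5 between treatments. With 7 cells drawn per tumor, 0 genes passed in both comparisons of medium R848-BPDs (76 and 78 at an unadjusted p under 0.05 of 1100 tested). Between treatments, fitting only the 2 groups gave 31 calls, and 8 passed with *Ccr7* at 2 or more, without doublets, or without cells holding markers of other classes, where the comparison with saline gave 39 (17 higher and 22 lower, against 19 and 7). The last setting was chosen after seeing the data. Leaving out each tumor in turn gave 0 to 5, 14 to 34 and 6 to 19 calls. The lowest and highest counts against saline came without saline replicate 3 and without free R848 replicate 2, and the lowest between treatments without free R848 replicate 1. A medium R848-BPD tumor left alone was assumed to vary like the other groups. The class-by-group counts of 9, 53 and 26 were 40, 107 and 47 without the filter and 2 to 33, 33 to 102 and 15 to 50 without 1 tumor. Against cDC1-gated and *Cd209a*-gated cells in place of macrophages, possible only for free R848, 0 of 2819 genes passed (143 unadjusted). Of 1577 values over 84 results, 3 changed sign: *Acp5* (−1.73 against saline) and *Prf1* (−1.09 against free R848) under the gate on *Ccl22* and *Il4i1*, and *Gbp3* (−0.33 against saline) with 7 cells per tumor, and the cause was not tested.

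The replicate block was fitted although numbers did not pair the tumors (correlations of same-numbered deviations from −0.124 to 0.053). It gave 0 (438 at an unadjusted p under 0.05), 14 and 8 calls in edgeR.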
